A study of Homo sapiens with 5 samples.

Results

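The RNA of KGN cells given phorbol myristate acetate (PMA) is compared here with that of control cells. KGN, an established line, was derived from a human tumour of ovarian granulosa cells. The comparison rests on 2 of the series' 5 samples, the PMA library and the control library, chosen by their treatment labels. PMA cells were treated for 24 h. The treatment label gives 0.1 mmol/L PMA, whereas the written protocol gives 0.1 with a symbol-font character before "mol" that reads as micro. Control cells received ethanol per the protocol, although their sample title calls them untreated. The medium of every group had charcoal-stripped serum and held androstenedione at 100 nmol/L, the substrate that aromatase turns into oestrone. The other 3 libraries came from cells given follicle-stimulating hormone (FSH, 100 ng/mL), forskolin (FSK, labelled 10 mmol/L and read as 10 µmol/L in the protocol) or SC79 (4 µg/mL, an activator of the kinase AKT), and they serve here as further points for each gene. Each library was a pool of 270 ng of total RNA, 90 ng from each of 3 cultures grown in 3 different weeks, with an RNA integrity number of 10. KGN is 1 tumour-derived line, so its cells stand in for granulosa cells only in part.

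PMA stands in for diacylglycerol, the lipid messenger that activates the conventional isoforms and some other isoforms of protein kinase C (PKC). Active PKC passes the signal on through Raf, MEK and ERK, and through NF-kB, to transcription factors such as the AP-1 dimers of Fos and Jun proteins. In the follicle, the surge of luteinizing hormone engages PKC beside protein kinase A (PKA), and proteases, prostaglandins and cytokines of the ovulating follicle are among the genes that respond. Phorbol esters are long known as inducers of collagenase and of the plasminogen system in many cell types.

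The PMA library held 52200526 estimated counts, against 58849719 in the control library, and the other libraries held between 50253128 and 53529180. Values below are scaled counts, which are estimated counts per gene brought to 1 common depth. Log2 ratios use a pseudocount of 1 scaled count. A gene counts as higher or lower when the libraries differ at least 2-fold and the higher one holds at least 100 scaled counts. Intervals are exact 95% intervals of the ratio and cover counting error only. With 1 pooled library per group there is no replicate error, no p-value was computed, and no difference has a replicate check. The granulosa factors FOXL2, NR5A1, GATA4 and AMH had 5451, 4760, 7972 and 1490 scaled counts in PMA cells, against 9964, 5069, 10074 and 2085 in control cells, and 0 of 10 oocyte markers reached 100 in either library. Of 16 granulosa markers listed, 12 reached the minimum. The 4 under it were FSHR (36.6 in PMA cells, 92.6 in control cells), AMHR2 (15.8 in PMA cells, 98.1 in control cells), INHA (74.1 in PMA cells, 61.4 in control cells) and WT1 (0 in PMA cells, 0.92 in control cells). Of the 12 compared, 2 were higher, STAR (log2 ratio 2.41) and INHBA (1.11), and 0 were lower, with 8 of the 12 below control. Among all genes compared, 3.64% were higher and 3.62% lower. The luteinizing hormone receptor LHCGR, outside the granulosa marker list, had 3.95 in PMA cells and 3.74 in control cells.

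Of 12645 genes compared, 460 were at least 2-fold higher in PMA cells (3.64%) and 458 were lower (3.62%). Every count of list members past 2-fold below is to be read against these 2 shares. At 4-fold the balance tipped upward, with 146 genes higher (1.15%) and 53 lower (0.419%), and at 8-fold 64 were higher and 7 lower. The middle of the transcriptome was close to control, with a median log2 ratio of -0.01 and 55.2% of genes within 1.2-fold. The split of the 2-fold calls depends on scaling. On the authors' own normalized values, whose median log2 ratio over all genes is -0.25, it was 325 higher and 739 lower. In all 918 genes (7.26%) were past 2-fold either way. On one side or the other, 71 genes lay within 0.02 log2 of the threshold, for example PTPRR just inside (168 scaled counts in PMA cells, 83.4 in control cells) and MSRB3 just outside (3662 in PMA cells, 7321 in control cells). For comparison of scale, FSK cells had 9.55% of compared genes past 2-fold, FSH cells 0.409% and SC79 cells 0.264%, all against this control library.

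**Figure D1:**
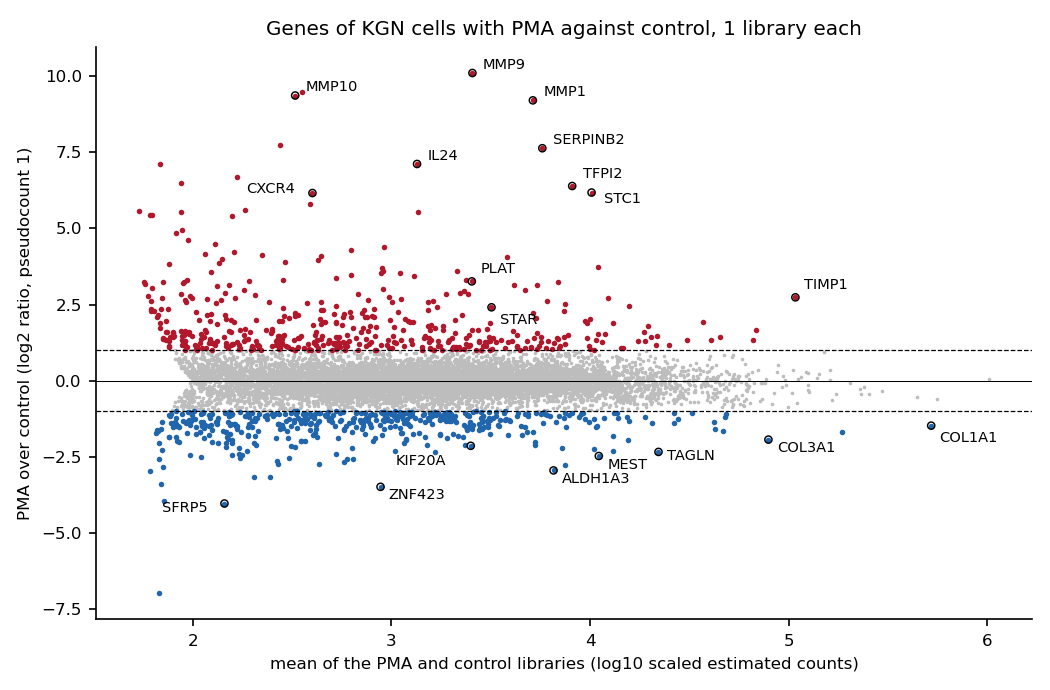
Log2 ratio of PMA over control (vertical axis) against the mean of both libraries in log10 scaled counts (horizontal axis), 1 point per gene, with 460 genes at least 2-fold higher in red, 458 lower in blue and the rest grey. Circled genes are named in the text; MMP9, MMP10 and MMP1 lie near the top and dashed lines mark 2-fold.

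Matrix metalloproteinases, enzymes that cut collagens and other matrix proteins outside the cell, had the highest ratios among genes with mostly their own sequence. These are genes for which at least 80% of the 31-base words occur in transcripts of no other gene (own words). MMP9, gelatinase B on chromosome 20 (46008908 to 46016561, plus strand, GRCh38 with GENCODE 29), had 5117 scaled counts in PMA cells, against 4.99 in FSH, 13.6 in FSK, 10.6 in SC79 and 3.67 in control cells. MMP1, interstitial collagenase on chromosome 11 (102789920 to 102798160, minus strand), had 10302 scaled counts in PMA cells, against 37.9 in FSH, 35.5 in FSK, 34.9 in SC79 and 16.5 in control cells. Its neighbour MMP10, stromelysin 2 (102770503 to 102780628), had 656 in PMA cells, against 3.00, 4.18 and 2.12 in FSH, FSK and SC79 cells and 0 in control cells. The PMA library stood alone for all of these genes, with no other library above 37.9 scaled counts. The log2 ratio over control was 10.10 for MMP9 (1395-fold, interval 545 to 5123) and 9.20 for MMP1 (624-fold, interval 395 to 1054), and MMP10 was at least 239-fold higher against 3 counts in the control library. MMP3, stromelysin 1 of the same chromosome 11 cluster, stayed under the minimum with 68.2 scaled counts in PMA cells and 0.92 in control cells, from 69 counts and 1 count.

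Of the 21 metalloproteinase and inhibitor genes listed, 15 reached the minimum, 5 were higher and 1 was lower, with a median log2 ratio of 0.24 against -0.01 over all genes. The membrane-anchored MMP14, which activates pro-MMP2, had 58784 scaled counts in PMA cells, against 16353 in FSH, 14689 in FSK, 16341 in SC79 and 15536 in control cells. TIMP1, an inhibitor that binds MMP9, had 188091 scaled counts in PMA cells, against 33154 in FSH, 52758 in FSK, 30583 in SC79 and 28211 in control cells. TIMP1 gained more counts than any other gene (6.67-fold, interval 6.59 to 6.75). The matrix-bound inhibitor TIMP3 went the other way, with 1202 in PMA cells and 3049 in control cells (log2 ratio -1.34). The gelatinase MMP2 (log2 ratio 0.08) and TIMP2 (0.07) were within 2-fold of control.

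Levels between genes are compared per kilobase of transcript. TIMP1 reached 215525 scaled counts per kb in PMA cells and 32506 in control cells. MMP1 had 5229 per kb in PMA cells and 8.38 in control cells, and MMP9 had 2191 per kb in PMA cells and 1.57 in control cells. MMP2 had 45925 per kb in PMA cells and 42932 in control cells, so the enzymes with the largest ratios remained below it in level. MMP14 had 17508 per kb in PMA cells and 4815 in control cells.

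The plasminogen system was next. Plasmin is released from plasminogen by the activators PLAT and PLAU, with PLAU held at the cell surface by its receptor PLAUR, and serpins restrain both. Of 13 genes compared, 6 were higher and 1 was lower, with a median log2 ratio of 0.84. The inhibitor SERPINB2 (PAI-2, chromosome 18) had 11458 scaled counts in PMA cells, against 49.9 in FSH, 83.6 in FSK, 35.7 in SC79 and 56.9 in control cells. PLAT, the tissue activator, had 4607 in PMA cells, against 405 in FSH, 94.0 in FSK, 360 in SC79 and 480 in control cells. PLAUR had 10480 in PMA cells, against 1725 in FSH, 1880 in FSK, 1572 in SC79 and 1699 in control cells. In each case the PMA library was the only one far above the rest, and for PLAT the FSK library lay below control. The Kunitz inhibitor TFPI2 had 16084 in PMA cells, against 250 in FSH, 4501 in FSK, 147 in SC79 and 191 in control cells. PLAU itself was within 2-fold (16833 in PMA cells, 12743 in control cells), and S100A10, a partner of annexin A2 in binding plasminogen, was lower at a log2 ratio of -1.19.

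**Figure D2:**
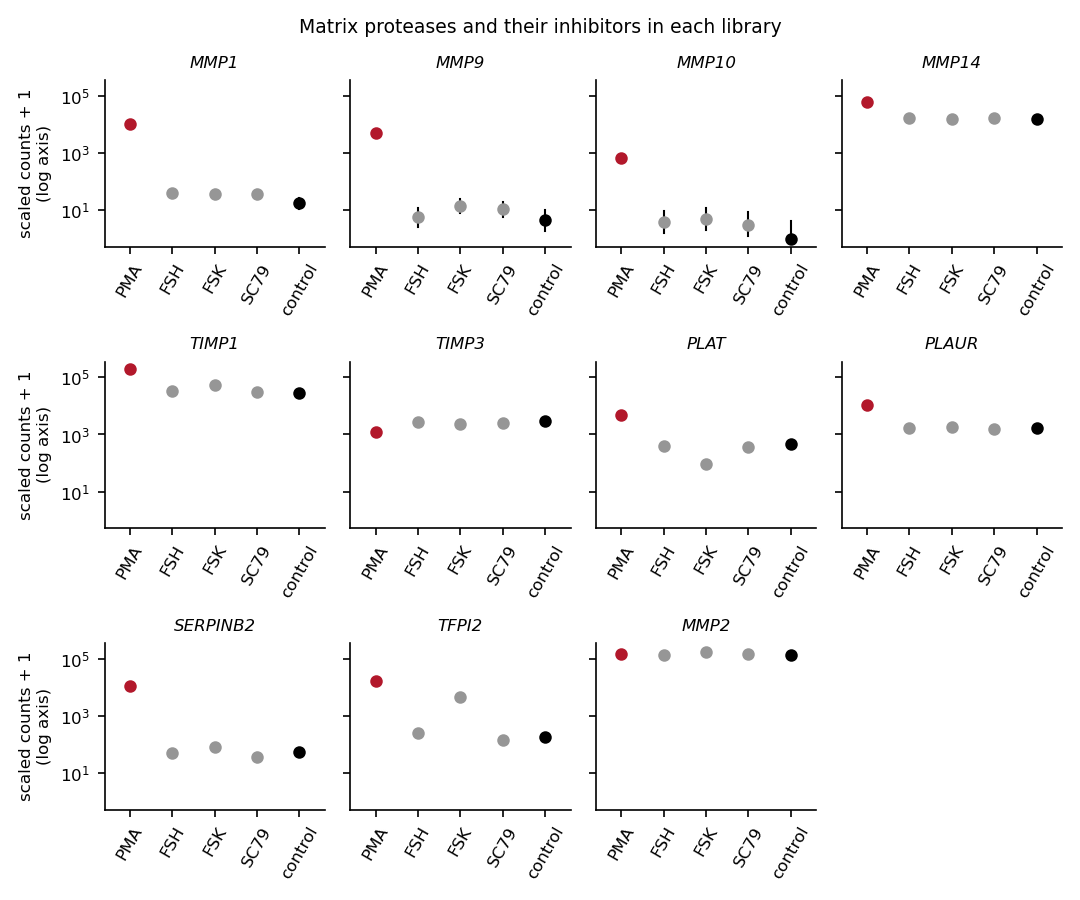
Scaled counts plus 1 on a log axis for 11 proteases and inhibitors, 1 point per library (PMA red, FSH, FSK and SC79 grey, control black), with exact 95% counting intervals as lines where they exceed the point. The PMA library is the highest for MMP1, MMP9, MMP10 and SERPINB2 with the other libraries close together, whereas TIMP3 is lowest with PMA.

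Other surface and secreted proteins were also far above control. The fibroblast activation protein gene FAP had 764 scaled counts in PMA cells and 12.8 in control cells. PRSS3, a trypsinogen, had 361 in PMA cells and 6.42 in control cells. SERPINA1, the inhibitor of neutrophil elastase, had 1745 in PMA cells and 82.5 in control cells, and the thrombin receptor thrombomodulin (THBD) had 1194 in PMA cells and 59.6 in control cells. All 4 were above the FSH, FSK and SC79 libraries as well, whose highest value for any of them was 108. TGM2, a transglutaminase that cross-links matrix proteins, had 20366 in PMA cells, against 1964 in FSH, 4450 in FSK, 1773 in SC79 and 1519 in control cells.

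PKC genes were within 2-fold of control where they could be compared. Of 9 listed, 7 reached the minimum and 0 were past 2-fold, and they include PRKCI and PRKCZ, atypical isoforms that do not bind phorbol esters. PRKCA, the most abundant per kilobase, had 20070 scaled counts in PMA cells and 16558 in control cells. PRKCD had 1214 in PMA cells and 1225 in control cells. PRKCE had 429 in PMA cells and 650 in control cells (log2 ratio -0.60, interval 0.584 to 0.745-fold). PRKCQ was at -0.96, PRKCZ at -0.78 and PRKCH at 0.65.

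AP-1 subunit genes were mostly near control at 24 h. Of 13 compared, 2 were higher and 1 lower, a share to be read against 3.64% and 3.62% of all genes, and their median log2 ratio was -0.01. FOS had 645 scaled counts in PMA cells and 674 in control cells, and JUN had 10957 in PMA cells and 12408 in control cells. JUNB had 6854 in PMA cells and 3273 in control cells (log2 ratio 1.07), and MAFF, a small Maf protein, had 2809 in PMA cells and 1298 in control cells (1.11). FOSL1 (Fra-1), a Fos-family protein usually raised by ERK, had 8467 in PMA cells, against 16874 in FSH, 3747 in FSK, 16254 in SC79 and 17812 in control cells. Its log2 ratio was -1.07, and it was -0.94 or -0.99 with the SC79 or FSH library in place of control, short of 2-fold. Among 16 other early response genes, 4 were higher: KLF5 (log2 ratio 1.84), NR4A3 (1.42), IER3 (1.41) and NR4A2 (1.21), whereas EGR3 (-0.57) and KLF10 (-0.76) were within 2-fold.

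Feedback inhibitors of the ERK pathway gave 4 higher and 0 lower genes of 19, with a median log2 ratio of 0.14. DUSP5, a nuclear phosphatase of ERK, had 1888 scaled counts in PMA cells, against 439 in FSH, 219 in FSK, 389 in SC79 and 468 in control cells. DUSP6, its cytoplasmic counterpart, had 4187 in PMA cells, against 1649 in FSH, 1184 in FSK, 1612 in SC79 and 1751 in control cells. The PMA library was the highest and the FSK library the lowest for both. SPRED3 (1.35) and SPRY4 (1.07) were the other members past 2-fold, while DUSP4 was at -0.96.

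Cytokines made up the list with the highest median log2 ratio among the pathway lists, 1.12, with 8 of 16 genes higher and 1 lower. IL24, a cytokine of the IL-10 family, had 2677 scaled counts in PMA cells, against 29.95 in FSH, 113 in FSK, 18.0 in SC79 and 18.3 in control cells (146-fold in the plain ratio, interval 94.3 to 239). IL33, an alarmin of the IL-1 family, had 7482 in PMA cells, against 930 in FSH, 1594 in FSK, 721 in SC79 and 856 in control cells. IL1B had 1719 in PMA cells, against 366 in FSH, 628 in FSK, 233 in SC79 and 286 in control cells. Each of these was highest with PMA. IL11, which signals through gp130, had 9703 in PMA cells, against 1496 in FSH, 21866 in FSK, 870 in SC79 and 1095 in control cells, and so was higher still with FSK. The others past 2-fold higher were TSLP (2.31), IL1A (2.02), LIF (1.80) and IL6 (1.47). IL34, a ligand of the CSF1 receptor, was lower at -1.33.

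Of 6 chemokine genes at the minimum, CXCL8 and CXCL2 were higher. CXCL8 (interleukin 8), which attracts neutrophils, had 12750 scaled counts in PMA cells, against 2081 in FSH, 4364 in FSK, 1955 in SC79 and 2212 in control cells. CXCL1 was not higher (1628 in PMA cells, 2291 in control cells). CCL20 was under the minimum with 61.3 in PMA cells and 2.75 in control cells, a ratio of 22.3 with an interval of 7.28 to 111. NF-kB subunits and targets split, with 4 higher and 2 lower of 26 and a median log2 ratio of 0.11. ICAM1, the leukocyte adhesion receptor, had 468 in PMA cells and 106 in control cells (log2 ratio 2.14), whereas VCAM1, another such receptor, had 1423 in PMA cells and 4832 in control cells (-1.76). The chemokine receptor CXCR4 had 792 scaled counts in PMA cells, against 10.98 in FSH, 87.8 in FSK, 3.17 in SC79 and 10.1 in control cells.

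The AP-1 letters TGAGTCA were counted on both strands of promoters, 250 bases before to 50 after the start, in RefSeq on GRCh38.p14. A promoter was matched for 10153 compared genes, and the shares are over the 8957 protein-coding genes with at least 80% own words. Of the 146 genes at least 4-fold higher, 87 entered these shares. MMP1 and MMP9 had no matched promoter and were not searched, so these shares say nothing about them. The letters stood in 6 of 87 promoters of genes at least 4-fold higher (6.9%), in 14 of 212 of those 2 to 4-fold higher (6.6%), in 230 of 8345 within 2-fold (2.76%), in 9 of 277 that were 2 to 4-fold lower (3.25%) and in 1 of 36 at least 4-fold lower (2.78%). All compared promoters held them at 2.9% and the whole table at 4.95%. Mean GC content was 57.9% in the first class and 64.8% over all compared promoters, and the part of base composition in these shares was not tested. The ETS letters CCGGAAGT stood in 9.38% of promoters within 2-fold and were scarcer in both higher classes and among those 2 to 4-fold lower. They stood in 0 of 87 of the first class, which allows a share of up to 3.45%. The share was 0.943% of those 2 to 4-fold higher and 2.53% of those 2 to 4-fold lower. At least 4-fold lower it was 0 of 36, which allows up to 8.33%, so scarcity is not shown for that class. NF-kB letters (GGGANTTCC, with N any base) stood in 1.15% of the first class and 2.32% of all compared, CRE letters (TGACGTCA) in 1.15% and 3.3%, EGR letters (GCGTGGGCG) in 1.15% and 1.36%, and E-box letters (CACGTG) in 8.05% and 10.1%. Each set of letters was searched on its own, and the CRE letters do not contain the AP-1 letters.

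**Figure D3:**
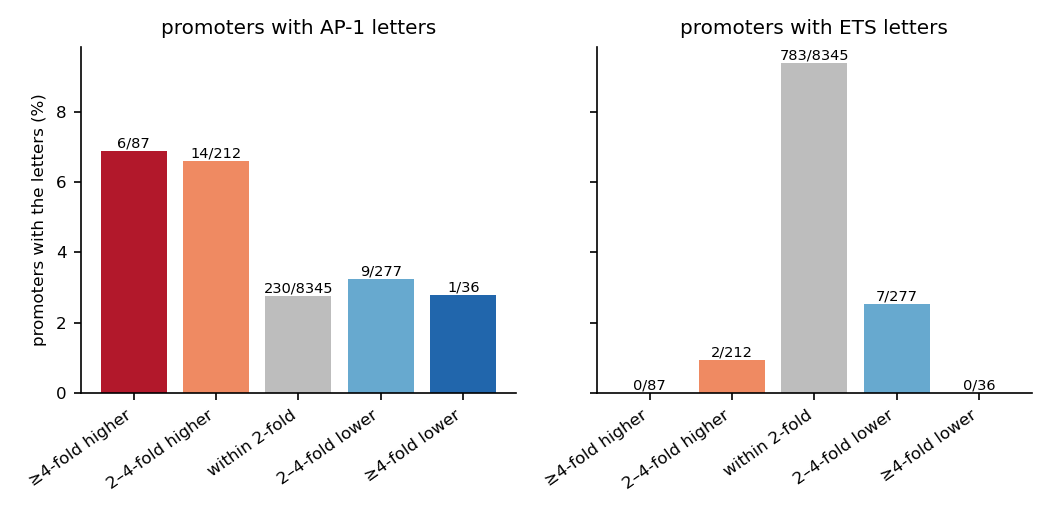
Share of promoters (vertical axis, percent) that hold the AP-1 letters (left panel) or the ETS letters (right panel) in 5 classes of genes by their PMA over control ratio, with the counts over the bars. AP-1 letters are found at 6.9% and 6.6% in the higher classes and 2.76% within 2-fold, and ETS letters at 9.38% within 2-fold and at 2.53% or less in the other 4 classes.

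Among the searched genes at least 4-fold higher, the 6 that hold the AP-1 letters are shown for the 120 bases around them. They run 5′ to 3′ on the gene's strand, to show where the letters stand in these genes. Capitals mark TGAGTCA or its reverse complement. Coordinates are on GRCh38.p14 and every window ends before the start of transcription.
CXCL8, chr4:73740372-73740491, plus strand: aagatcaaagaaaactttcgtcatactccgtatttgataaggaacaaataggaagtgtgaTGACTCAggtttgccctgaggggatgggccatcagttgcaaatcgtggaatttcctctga
IL11, chr19:55370500-55370619, minus strand: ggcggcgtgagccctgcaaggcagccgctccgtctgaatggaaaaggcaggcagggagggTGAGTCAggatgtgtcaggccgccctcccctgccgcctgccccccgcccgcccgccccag
IL1A, chr2:112784494-112784613, minus strand: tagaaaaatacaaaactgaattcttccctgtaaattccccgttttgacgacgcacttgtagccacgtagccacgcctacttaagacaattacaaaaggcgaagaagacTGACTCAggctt
IL1RN, chr2:113117721-113117840, plus strand: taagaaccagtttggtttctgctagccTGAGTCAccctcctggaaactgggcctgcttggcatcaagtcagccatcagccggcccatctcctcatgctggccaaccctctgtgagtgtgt
PLAUR, chr19:43670296-43670415, minus strand: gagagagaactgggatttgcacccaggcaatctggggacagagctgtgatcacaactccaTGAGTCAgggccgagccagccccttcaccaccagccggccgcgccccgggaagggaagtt
SHC4, chr15:48963941-48964060, minus strand: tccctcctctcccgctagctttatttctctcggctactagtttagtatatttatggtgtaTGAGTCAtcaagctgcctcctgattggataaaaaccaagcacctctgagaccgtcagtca

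The letters begin 137 bases before the start in CXCL8, 96 in IL11, 12 in IL1A, 223 in IL1RN, 186 in PLAUR and 81 in SHC4, and IL1A holds them a further time 38 bases after its start. The genes' log2 ratios with PMA were 2.53 for CXCL8, 3.15 for IL11, 2.02 for IL1A, 2.21 for IL1RN, 2.62 for PLAUR and 2.84 for SHC4. IL1RN encodes the interleukin 1 receptor antagonist and SHC4 an adaptor of receptor tyrosine kinases. A match is a description of these letters and not of a bound site.

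Growth and angiogenic factors had 9 higher and 1 lower member of 25, with a median log2 ratio of 0.61. ESM1, a proteoglycan secreted by vessel cells, had 1687 scaled counts in PMA cells and 138 in control cells (log2 ratio 3.61). VEGFA, the main vessel growth factor, had 30575 in PMA cells, against 9176 in FSH, 12673 in FSK, 7643 in SC79 and 8734 in control cells. ANGPTL4 (3.02), FGF7 (2.31), FGF5 (2.13), PDGFB (1.88), SPHK1 (1.78), NRP1 (1.17) and VEGFC (1.14) were also higher, and the vasoconstrictor EDN1 was lower (-1.68). The EGF-like ligands AREG (2.58) and NRG1 (2.27) were higher, and EREG, under the minimum, had 73.5 in PMA cells and 13.9 in control cells. Prostaglandin synthesis and receptor genes had 3 higher and 2 lower members of 12, with a median log2 ratio of -0.04. PTGS2, the inducible cyclooxygenase of the ovulating follicle, had 4118 in PMA cells, against 662 in FSH, 2285 in FSK, 475 in SC79 and 539 in control cells. PTGS1, the other cyclooxygenase, had 172 in PMA cells, against 28.0 in FSH, 58.5 in FSK, 7.41 in SC79 and 4.59 in control cells. PLA2G4A, which frees arachidonate, had 1609 in PMA cells and 631 in control cells, while the receptor PTGER4 (-1.25) and the thromboxane synthase TBXAS1 (-1.04) were lower. PTGES, the terminal synthase, was under the minimum in PMA cells at 21.1, against 7.49 in control cells, and had 396 in FSK cells.

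**Figure D4:**
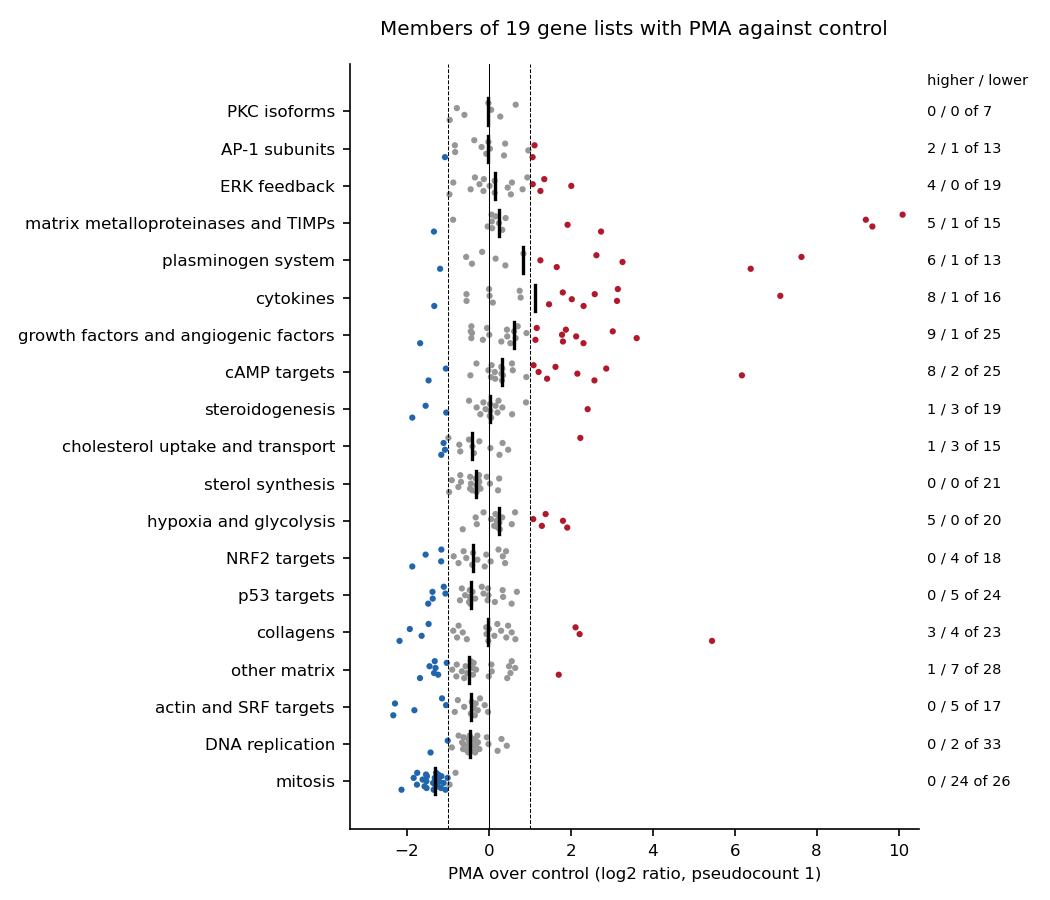
Log2 ratio of PMA over control (horizontal axis) for the members of 19 gene lists that reached 100 scaled counts, 1 point per gene, red at least 2-fold higher and blue at least 2-fold lower, with the list median as a black bar and the counts of higher and lower members at the right. Mitosis genes lie left of 0 with 24 of 26 lower, whereas cytokines, plasminogen genes and metalloproteinases hold the highest values.

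Steroidogenesis genes differed one by one with PMA. Of 19 compared, 1 was higher and 3 were lower, with a median log2 ratio of 0.03. STAR, which carries cholesterol into mitochondria, had 5377 scaled counts in PMA cells, against 3531 in FSH, 10078 in FSK, 1333 in SC79 and 1011 in control cells (log2 ratio 2.41, interval 4.99 to 5.68-fold). CYP11A1, which makes pregnenolone from that cholesterol, had 670 in PMA cells, against 1191 in FSH, 12434 in FSK, 969 in SC79 and 825 in control cells. CYP19A1, the aromatase gene, had 1688 in PMA cells, against 2564 in FSH, 27409 in FSK, 1382 in SC79 and 901 in control cells. With PMA, STAR was thus past 2-fold, CYP19A1 at 0.91 was short of it, and CYP11A1 at -0.30 lay below control, while in FSK cells their log2 ratios were 3.32, 4.93 and 3.91 over the same control library. HSD3B2, which makes progesterone, was under the minimum with 14.9 in PMA cells, 73.1 in FSK cells and 12.8 in control cells. The aldo-keto reductases AKR1C1 (-1.55), AKR1C2 (-1.87) and AKR1C3 (-1.04) were the lower members, and only AKR1C3 has over 80% of its 31-base words to itself, so reads of the other 2 may be exchanged between near-identical copies.

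Cholesterol supply was lower in part. The lipoprotein receptor SCARB1 (1009 in PMA cells, 2124 in control cells) and APOE (142 in PMA cells, 319 in control cells) were lower, and the exporter ABCG1 was higher (541 in PMA cells, 115 in control cells). Sterol synthesis genes had 0 of 21 members past 2-fold and a median log2 ratio of -0.31, with INSIG1 at -0.91. In the granulosa factor list, CEBPB, a mediator of luteinization, had 11499 scaled counts in PMA cells, against 4414 in FSH, 10894 in FSK, 4693 in SC79 and 4089 in control cells. FOXL2, which maintains granulosa identity, had a log2 ratio of -0.87, short of 2-fold, and its values in FSH, FSK and SC79 cells were 9124, 9990 and 10379. Among receptor genes under the minimum, the FSHR interval ran between 0.263 and 0.581-fold, and AMHR2, the receptor of anti-Müllerian hormone, had 15.8 in PMA cells and 98.1 in control cells (interval 0.0889 to 0.274-fold).

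Genes listed as cAMP targets had 8 higher and 2 lower members of 25 with PMA, and a median log2 ratio of 0.33, against 1.19 in FSK cells over the same control. STC1, a secreted glycoprotein that inhibits pappalysins, had 20098 scaled counts in PMA cells, against 562 in FSH, 6297 in FSK, 271 in SC79 and 277 in control cells. RGS2, which speeds the switching off of Gq, had 3899 in PMA cells, against 816 in FSH, 4824 in FSK, 514 in SC79 and 535 in control cells. Both were high in the PMA and FSK libraries. The nuclear receptors NR4A2 and NR4A3 and the phosphodiesterases PDE4B and PDE7B had log2 ratios between 1.09 and 1.63 with PMA, where their FSK values were 3.85, 3.81, 3.02 and 4.15. PRKAR2B, a regulatory subunit of PKA, was lower with PMA (657 in PMA cells, 1827 in control cells) and PDE3A, 1374 in FSK cells, had 28.7 in PMA cells and was also under the minimum in control cells. The difference between PMA and FSK was not tested, since each has 1 library and both are set against 1 control library.

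**Figure D5:**
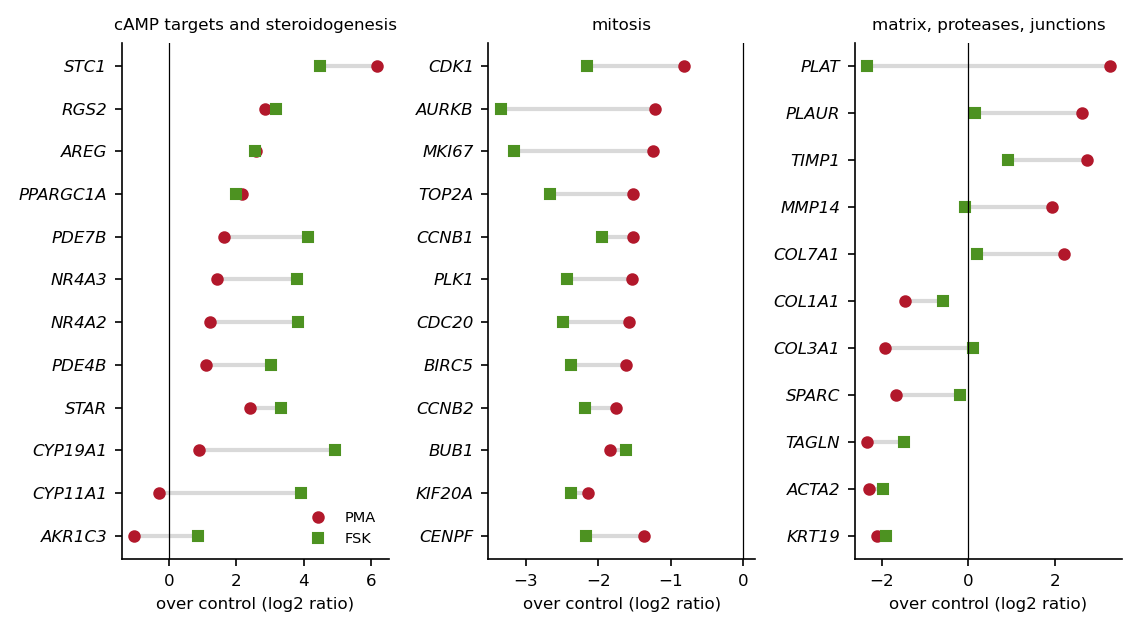
Log2 ratio over the shared control library for PMA (red circles) and FSK (green squares), 1 row per gene, in 3 sets: 12 cAMP and steroid genes, 12 mitosis genes, and 11 matrix, protease and junction genes. CYP19A1 and CYP11A1 differ widely between the treatments, mitosis genes lie below 0 with both, and PLAT lies above 0 with PMA and below 0 with FSK.

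Mitosis genes were lower nearly throughout. Of 26 genes, 24 were at least 2-fold lower in PMA cells and the other 2, CDK1 (-0.82) and MAD2L1 (-0.96), were also below control, where 3.62% of all genes were lower. KIF20A, a kinesin of the spindle midzone, had 931 scaled counts in PMA cells, against 3276 in FSH, 792 in FSK, 3612 in SC79 and 4091 in control cells. TOP2A, which untangles chromosomes, had 5561 in PMA cells, against 12516 in FSH, 2505 in FSK, 14309 in SC79 and 15885 in control cells. The proliferation marker MKI67 had 6243 in PMA cells, against 12534 in FSH, 1652 in FSK, 13015 in SC79 and 14739 in control cells. In these genes the PMA and FSK libraries were low and the FSH and SC79 libraries lay closer to control. The list medians were -1.32 with PMA, -2.39 with FSK, -0.31 with FSH and -0.18 with SC79. Summed over the list, scaled counts were 46076 in PMA cells and 117666 in control cells. In bulk RNA, fewer dividing cells and less of each RNA per cell cannot be told apart.

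DNA replication genes did not follow to the same degree. Of 33, 2 were lower and 0 higher, with a median log2 ratio of -0.46 with PMA and -1.63 with FSK. TK1, thymidine kinase, had 1500 scaled counts in PMA cells and 4027 in control cells, and TYMS, thymidylate synthase, had 2484 in PMA cells and 4986 in control cells. Only 3 of the 33 were above control: RFC2 and the helicase subunits MCM5 (log2 ratio 0.31) and MCM7 (0.21). The helicase subunits MCM2, MCM3, MCM4 and MCM6 were among the 30 below control. MCM6, for example, had 698 scaled counts per kb in PMA cells and 978 in control cells. CDC45, which joins the helicase subunits, was at -0.01 with PMA and -2.92 with FSK. Among G1 regulators CCND1 (cyclin D1) had 51109 in PMA cells, against 26655 in FSH, 12227 in FSK, 26414 in SC79 and 28928 in control cells, a log2 ratio of 0.82. CDKN2C (-1.29) and MYBL2 (-1.21) were the 2 lower members of 18. The p53 target list had 5 of 24 lower and 0 higher with a median of -0.43. Its best-known member CDKN1A was at 0.34, and PLK2 (-1.48), BTG2 (-1.38) and ZMAT3 (-1.37) were the lowest.

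Matrix genes split by type. COL1A1, the main fibrillar collagen chain, lost more counts than any other gene, with 276510 scaled counts in PMA cells, against 708339 in FSH, 514649 in FSK, 767221 in SC79 and 767307 in control cells. COL3A1 had 32873 in PMA cells, against 126268 in FSH, 134533 in FSK, 122698 in SC79 and 125355 in control cells. SPARC, a collagen-binding glycoprotein, had 88276 in PMA cells, against 275530 in FSH, 247799 in FSK, 258386 in SC79 and 283330 in control cells. The PMA library was the only one of the 5 well below control for COL3A1 and SPARC. COL5A1 (-1.64) and COL15A1 (-2.18) were the other lower members of the collagen list, while COL7A1, the anchoring fibril collagen, had 8494 in PMA cells and 1830 in control cells, and COL13A1 (2.11) was higher too. COL5A3 had 123 in PMA cells and 1.83 in control cells, from 2 counts, so that the interval of the ratio ran between 18.1 and 558. Of the 23 collagens listed and compared, 3 were higher and 4 lower, with a median of -0.02. COL21A1, a collagen outside the list, was among the 20 lowest ratios, with 73.2 in PMA cells and 459 in control cells. Other matrix genes had 7 of 28 lower and 1 higher (LOXL4, 1.70), among the lower LOXL1, LOXL2, FBLN2 and FBLN5 between -1.24 and -1.34. Fibronectin (FN1) was within 2-fold (log2 ratio 0.06). Of the laminins, which build basement membrane, the chain LAMB3 (1.32) was higher and LAMA1 (-1.23), LAMA5 (-1.18) and LAMB1 (-1.07) were lower, and ITGA2, a collagen receptor subunit, had 44322 in PMA cells and 17554 in control cells.

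Contractile genes were lower in part. Of 17 actin and serum response factor targets, 5 were lower and 0 higher, with a median of -0.44. TAGLN (transgelin) had 7321 scaled counts in PMA cells, against 33007 in FSH, 13135 in FSK, 27693 in SC79 and 36929 in control cells. ACTA2 (smooth muscle actin) had 4438 in PMA cells, against 19158 in FSH, 5534 in FSK, 17280 in SC79 and 21756 in control cells. Both were low in the PMA and FSK libraries. MYL9 (-1.82) and ACTG2 (-1.15) were also lower, and SRF itself was at -0.02. The keratin KRT19 (889 in PMA cells, 3837 in control cells) and the junction genes CLDN11 (-1.38) and DSG2 (-1.31) were lower as well.

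The lowest ratios among single genes included regulators of Wnt, retinoic acid and BMP signalling. SFRP5, a secreted antagonist of Wnt, had 15.8 scaled counts in PMA cells, against 273 in FSH, 76.3 in FSK, 216 in SC79 and 273 in control cells (log2 ratio -4.03). ZNF423, a zinc finger partner of SMADs, had 144 in PMA cells, against 1576 in FSH, 1211 in FSK, 2013 in SC79 and 1621 in control cells. ALDH1A3, which makes retinoic acid, had 1508 in PMA cells, against 11028 in FSH, 3076 in FSK, 7041 in SC79 and 11600 in control cells. The retinoid list otherwise leaned upward, with 5 of 12 higher, among them DHRS3 (2870 in PMA cells, 541 in control cells), RDH10 (2.03) and the receptor RARB. Its median of 0.33 turned to -0.04 on the authors' normalized values, where 13 genes in place of 12 reached the minimum. In the Wnt list 5 of 23 were higher, led by WNT7B (1145 in PMA cells, 102 in control cells), and 3 were lower, led by LGR5 (-1.98). The imprinted gene MEST had 3390 in PMA cells and 18770 in control cells. ABCG2, a drug exporter, had 70.2 in PMA cells and 469 in control cells.

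Hypoxia and glycolysis genes had 5 of 20 higher, among them NDRG1 (1.29) and PFKFB4 (1.08), while LDHA was at 0.32, and the median was 0.24. NRF2 targets had 4 of 18 lower, including NQO1 (3858 in PMA cells, 22923 in SC79 cells, 8657 in control cells) and SLC7A11 (-1.16), and a median of -0.40, where the SC79 median was 0.49. MHC genes had 2 of 21 lower, HLA-DRA (785 in PMA cells, 10066 in FSK cells, 1852 in control cells) and HLA-DMA (-1.32). Interferon genes had 1 higher and 1 lower of 25, close to the 3.64% higher and 3.62% lower among all genes. The mitochondrially encoded genes and the 14 reference genes had 0 past 2-fold, though RPLP0 was at -0.67 and PGK1 at 0.56. BCL2 family genes had 1 of 13 higher, BMF (1.97), a binder of the survival proteins.

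Markers of other cell types differed as well. Of 10 endothelial markers, 4 reached the minimum and 3 were higher, where 3.64% of all genes were higher. The other one, KDR, lay below control at a log2 ratio of -0.41. TIE1 had 348 scaled counts in PMA cells and 35.2 in control cells, PECAM1 had 647 in PMA cells and 109 in control cells, and VWF had 237 in PMA cells and 98.2 in control cells. Of the 2 libraries, only the PMA library held 100 scaled counts for TIE1 and VWF, and for the immune marker CSF1R below. These genes entered the comparison through the library where they are high, so the count of 3 higher is partly set by the minimum. Summed over the list, endothelial markers had 1421 in PMA cells and 444 in control cells. Immune markers summed to 2463 in PMA cells and 933 in control cells. Most of that sum was CD68 in both libraries, and 12 of the 14 immune markers were under the minimum. The defining marker CDH5 had 1.98 in PMA cells and 0 in control cells, and CLDN5 had 0 in PMA cells and 0.92 in control cells. Of 14 immune markers, CD68 (2176 in PMA cells, 790 in control cells) and CSF1R (209 in PMA cells, 56.9 in control cells) were higher, PTPRC, which marks leukocytes, had 37.5 in PMA cells and 37.7 in control cells, and CD3D, CD3E, MS4A1 and TYROBP were at 0 in both libraries. Among theca and stroma markers, 4 of 7 were lower and 0 higher, and they include COL1A1, COL3A1 and ACTA2 counted above. Whether any of these levels came from other cells was not tested.

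Some ratios rest on sequences with few letters of their own. ITGB1P1, with 709 scaled counts in PMA cells and 0 in control cells, H3F3AP4, with 333 in PMA cells and 2.26 in control cells, and AC116533.1, with 549 in PMA cells and 1.58 in control cells, share all of their 31-base words with transcripts of other genes. In FSH cells they had 810, 415 and 1149. The lowest ratio of all, AC233968.1 (0.09 in PMA cells, 135 in control cells), has 4.96% own words and 0 scaled counts in FSH cells. Among the 10854 compared genes with at least 80% own words, 406 were higher and 419 lower. Balances between transcripts of a gene did not stand out: a transcript's share of its gene moved by at least 30 percentage points in 0.971% of genes with PMA, 0.817% with FSH, 1.1% with FSK and 1.06% with SC79.

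The authors' deposited table sets each transcript of the PMA library against control, and how its p-values were obtained from single libraries is not given in the sources used here. At an adjusted p under 0.05, that is 1993 transcripts higher and 1907 lower in the authors' deposited table. Of the 460 genes higher here, 146 had such a higher transcript in the authors' deposited table, and of the 458 lower, 101 had such a lower one. As a base for these overlaps, 1588 of all 12645 genes compared had a higher transcript in the authors' deposited table. Over all 35453 gene names, 1685 had a higher transcript there and 1616 a lower one. Conversely, 1421 of the 1588 compared genes with a higher transcript had a gene ratio within 2-fold. Of all genes compared, only 7.26% were past 2-fold, so most genes of any kind lie within it. For the most abundant transcript of MMP9 the authors' deposited table gives a log2 fold change of 10.34 with an adjusted p of 8.94e-06, and for SERPINB2 7.58 with 1.95e-04. For TIMP1 the authors' deposited table gives 2.70 with an adjusted p of 0.287, and for STAR 2.38 with 0.443.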

How the data were processed

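Per the labels, poly(A) RNA of KGN cells was sequenced from both ends after NEBNext Ultra preparation, and strand is not stated. Trimmomatic, kallisto and edgeR are named in the submitters' processing notes, while sources used here name neither genome build nor index. The authors deposited estimated counts for 179973 transcripts per library and a normalized signal, which is those counts multiplied by 1 constant per library (0.934 for PMA, 1.02 for control). A comparison table deposited by the authors gives log2 fold changes and p-values per transcript. Identifiers of 90.9% of transcripts are in GENCODE 29, the source of coordinates.

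Estimated counts were summed over 35453 gene names, leaving out 303 transcripts without a name (at most 0.068% of a library), and rounded for scaling by TMM in edgeR 4.0.16 (R 4.3.3). Python 3.11.15 with pandas 2.3.3, numpy 2.4.6, scipy 1.17.1 and matplotlib 3.10.9 did the rest. Intervals are exact Clopper-Pearson intervals of the conditional binomial at 95% and cover counting error only. Against 0 counts, the fold is a bound against 3 counts in that library. Gene ratios were tested on simulated counts with known folds. An own word is a 31-base stretch that occurs in no transcript of another gene in GENCODE 29.

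The 51 gene lists (973 genes) and the members described were chosen with earlier results of these data known. Genes named are the 20 highest and 20 lowest ratios with at least 80% own words, the 10 that gained and the 10 that lost most counts, the 4 highest and 4 lowest of each list, and set granulosa and PKC genes. A further few, such as list members within 2-fold or under the minimum, markers of other cell types, SERPINA1, THBD, TGM2 and genes with AP-1 letters, were named after their values were seen. Alternatives changed the scaling, minimum, pseudocount, threshold, transcript class and compared library. Some genes that this rule names are not reported here.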

Additional observations from a re-analysis of the deposited data

How the results depend on the processing

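With 1 pooled library per group, no replicate could be left out and the intervals hold no variation between cultures. No paired analysis was possible because each group has 1 library. Counts of 460 higher and 458 lower genes moved by over 1.5 times under few alternatives. They were 720 and 693 at a minimum of 20 scaled counts, 278 and 294 at a minimum of 500, and 146 and 53 at 4-fold, because those settings test other numbers of genes or set another threshold. On the authors' normalized values, 739 genes were lower and 325 higher, with the median of all genes at -0.25 and 30.5% of the calls higher, against 50.1%. With the SC79 or FSH library in place of control, the counts were 468 and 411, or 421 and 421, and 747 or 732 of the 918 genes stayed past 2-fold the same way, while 4 or 8 changed sign. Of 183 named genes past 2-fold, 157 to 183 stayed so under the 8 alternatives of scaling, pseudocount, transcript class and library. List medians changed sign for chemokines at a minimum of 500 (-0.20, on 4 genes in place of 6). They also did for epithelial junctions and keratins against SC79 (0.0092, on 19 genes in place of 21). The retinoic acid median changed sign on the authors' values (-0.0391, on 13 genes in place of 12). In each case the members compared differed as well as the setting. The cause was not tested.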

Other observations

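A few genes outside the lists also stood far from control, named after their values were seen. The T cell receptor constant segments TRAC (204 scaled counts in PMA cells, 44.0 in control cells) and TRBC2 (2374 in PMA cells, 745 in control cells) and the joining segment TRBJ2-3 (172 in PMA cells, 42.2 in control cells) were higher. The T cell genes CD3D and CD3E were at 0 in both libraries. CSRP3, a muscle LIM protein, had 136 in PMA cells and 0 in control cells, at least 49.6-fold higher against 3 counts. DCSTAMP, which drives cell fusion in osteoclasts, had 173 in PMA cells and 0.92 in control cells, from 1 count, with the interval of the ratio between 33.4 and 7493. LEF1, a Wnt effector under the minimum, had 9.89 in PMA cells and 95.4 in control cells.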
